A study of Mus musculus with 12 samples.

Results

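The transcription factors that mark the Wolffian duct were examined in the prostate of mice labelled as Med1 knockouts and of wild-type mice. The set held 5 genes (Emx2, Pax2, Pax8, Lhx1 and Gata3), and 4 of them had a probe set with a single gene symbol, out of 18194 genes on the arrays. Pax2 was not analysed here. Each gene was read from its brightest probe set by the mean of all 12 arrays, so this mean chose the probe set and its size is no result. Their grouping was chosen by role and on measured values of these same arrays, among them the large lateral difference of Emx2. That change, and every comparison that uses the wild-type lateral arrays for Emx2, is therefore described by its values, with no test.

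Total RNA of whole lobes was measured on single-colour arrays, with 3 arrays in each of 4 groups: ventral prostate of Med1 knockout mice (KO_VP), ventral prostate of wild-type mice (WT_VP), lateral prostate of mice labelled Med1 knockout (KO_LP) and lateral prostate of wild-type mice (WT_LP). All mice were 16 weeks old. The protein made from Med1 belongs to Mediator, through which nuclear receptors and other transcription factors contact RNA polymerase II. Neither the labels nor the protocols give the allele, its deleted part or the cells that lost it. They do not say either whether each array stands for another mouse. Every p-value here therefore covers the spread among arrays alone, and that spread may be technical. Values are log2 signals, and in whole tissue fewer cells of a type and less RNA per cell cannot be told apart.

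The prostate grows out of the urogenital sinus, whereas the seminal vesicle, the vas deferens and the epididymis come from the Wolffian (mesonephric) duct. In mouse embryos, Pax2 and Pax8, a pair of paired-box factors that can replace each other in part, set up the duct lineage. Gata3, a zinc finger factor, guides the growing duct, and Lhx1, a LIM homeobox factor, is needed for the duct to extend. Emx2, a homeobox factor best known from the forebrain, is also needed for the mouse urogenital tract, which does not form without it. Gata3 has other roles too, among them in T lymphocytes and in several glandular epithelia.

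Array medians were between 6.39 and 6.43 for ventral prostate and between 6.05 and 6.06 for lateral prostate. At the same rank, sorted values spanned a median of 0.388 over all arrays, but 0.0493 among ventral and 0.0786 among lateral arrays, a sign of separate normalization of each lobe. The targeted gene was lower in the ventral knockout (-0.57 ± 0.12, SE, limma adjusted p = 0.0119). It did not pass in the lateral arrays labelled KO (-0.13 ± 0.12, SE, limma adjusted p = 0.622), and for that reason these arrays are called labelled KO. Med1 was read from its brightest probe set alone, and whether that lies in the deleted part is not known. It read 8.40, 8.34 and 8.44 in KO_LP, against 8.58, 8.74 and 8.23 in WT_LP. The name is therefore no reading of the genotype of these mice. Some prostate markers had strong signal on all 12 arrays, with probasin (Pbsn) between 12.10 and 13.57 and the homeobox gene Hoxb13 between 10.94 and 12.31. Tgm4 varied more, between 8.31 and 13.61. Of 11 measured prostate secretory and luminal genes, 5 fell and 0 rose in the ventral knockout (limma adjusted p under 0.05). Of all genes, 3.2% fell and 5.88% rose there. In the lateral lobe 0 of the 11 were called, where 5.03% of all genes were, and 1 had a low mean in KO_LP. A signal is called low here where it is below the 25% point of all probe sets on the arrays of that lobe, which was 4.73 in ventral and 4.52 in lateral arrays. This level takes the place of detection calls, and it was chosen with earlier results known.

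The start regions of Emx2 and Gata3 are shown because these were the members with signal far above the low level in at least 1 group. Both come from RefSeq on GRCm38.p6, with 250 bases before and 50 bases after the start, and capitals mark matches to the motifs searched below. The Emx2 window lies on the plus strand at chr19:59458440-59458739 and that of Gata3 on the minus strand at chr2:9878551-9878850.
Emx2: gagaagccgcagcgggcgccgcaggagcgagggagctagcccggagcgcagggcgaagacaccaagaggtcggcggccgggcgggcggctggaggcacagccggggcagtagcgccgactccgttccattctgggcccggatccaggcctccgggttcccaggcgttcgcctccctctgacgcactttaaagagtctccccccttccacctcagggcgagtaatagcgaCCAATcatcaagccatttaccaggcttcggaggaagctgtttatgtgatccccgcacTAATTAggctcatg
Gata3: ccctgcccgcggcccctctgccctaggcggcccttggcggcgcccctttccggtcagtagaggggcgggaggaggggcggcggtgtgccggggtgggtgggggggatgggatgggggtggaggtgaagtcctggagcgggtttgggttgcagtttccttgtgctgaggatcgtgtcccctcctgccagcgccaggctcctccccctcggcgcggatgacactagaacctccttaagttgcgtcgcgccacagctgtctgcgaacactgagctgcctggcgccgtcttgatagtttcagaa

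Both strands were searched for 5 motifs, whose matches did not overlap in these windows. One was TAATTA, the core that many homeodomain proteins recognize. Another was CCAAT, which lies before many start sites. The next, TATAAA, is the core of the element bound by the TATA-binding protein. AGAACA served as the half-site of steroid receptors. AGATAA served as a site of GATA factors. The Emx2 window held TAATTA 1 time, its first base 37 bases into the transcribed part, and 5.29% of the 32851 promoter windows in the table hold that motif. It also held CCAAT 1 time, beginning 21 bases before the start, a motif found in 37.4% of windows. The Gata3 window held 0 of the 5 motifs, and those of Pax8 and Lhx1 held only CCAAT, 1 time each. CG dinucleotides numbered 26 in the Emx2 window, 31 in that of Lhx1, 22 in that of Gata3 and 7 in that of Pax8. Of all windows, 16.9% had at least as many as Emx2 and 52.1% at least as many as Pax8.

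Emx2 had signal in wild-type lateral prostate and was at low signal everywhere else. It read 4.04, 4.30 and 4.15 in the lateral arrays labelled KO, against 8.28, 8.22 and 7.96 in the wild-type lateral arrays. All 3 arrays labelled KO lay under the 25% point of their own array, and the groups stood far apart. Emx2 averaged 4.17 ± 0.13 in KO_LP and 8.15 ± 0.17 in WT_LP (SD, n = 3 each), a measured difference of -3.99. With dim arrays raised to that point, Emx2 was lower in KO_LP by at least 3.61 log2 units, which is at least 12.2-fold lower. Without KO_LP replicate 3 and WT_VP replicate 3, a pair of arrays described further on, the difference was -3.98.

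In the ventral lobe Emx2 read 3.77, 3.80 and 3.75 in knockout arrays, against 3.69, 3.54 and 3.91 in wild-type arrays. These groups overlapped and all 6 values were low. The ventral difference of 0.060 ± 0.111 (SE) did not pass (limma adjusted p = 0.780), and its 95% interval ran from -0.18 to 0.30. The lateral minus the ventral genotype difference measured -4.05, but KO_LP, KO_VP and WT_VP were all low, so its exact size cannot be read. Between the lobes of wild-type mice, Emx2 averaged 8.15 ± 0.17 in WT_LP and 3.71 ± 0.18 in WT_VP (SD, n = 3 each), a measured difference of 4.44 and at least 10.6-fold higher in lateral prostate. The KO_LP mean of 4.17 lay between the ventral group means and the low-signal level of 4.52, and values under that level have no order.

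**Figure D1:**
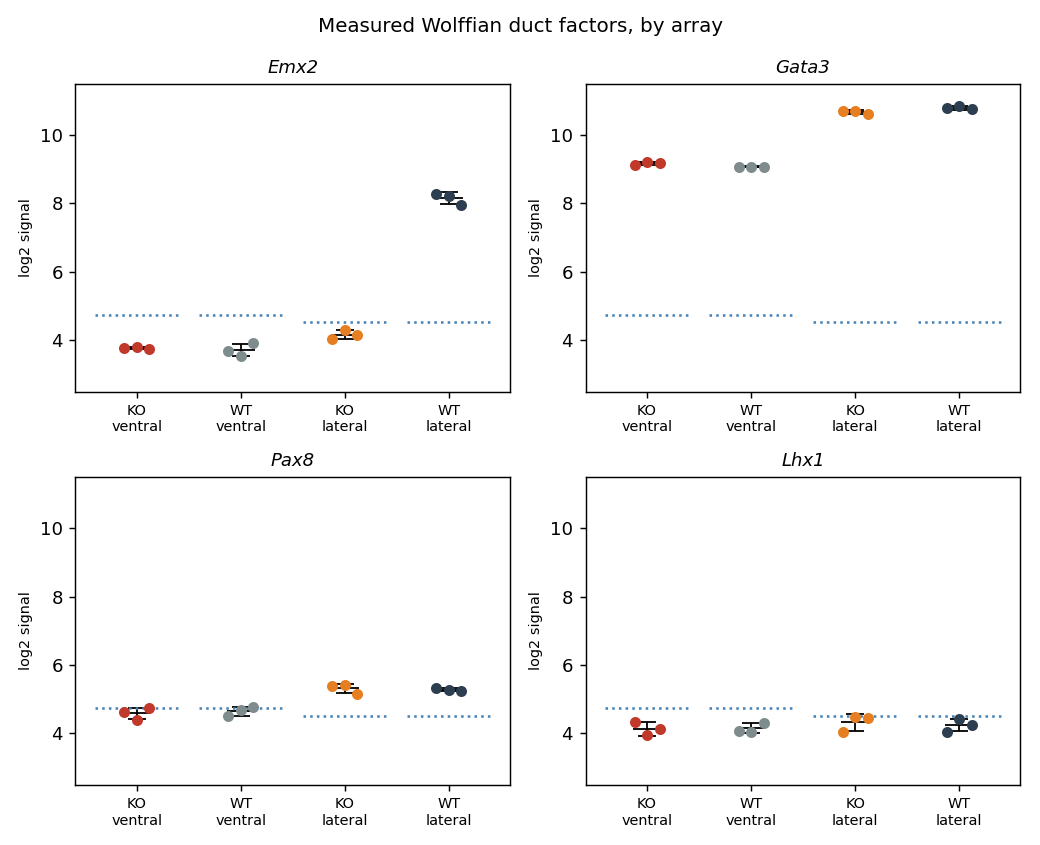
Log2 signal (vertical axis) of the 4 measured factors on each of the 12 arrays, with a point per array, the mean as a bar with its SD, and a dotted line at the low-signal level of the lobe (4.73 in ventral, 4.52 in lateral arrays). Emx2 lies above the line in WT lateral arrays only, Gata3 is higher in both lateral groups than in both ventral groups, and Lhx1 lies below the line in all 4 groups.

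Emx2os, an antisense RNA gene next to Emx2 whose record does not overlap that of Emx2 in the RefSeq table, was looked at after its values were seen. Emx2os read 3.34, 3.80 and 3.83 in the lateral arrays labelled KO, against 5.65, 5.64 and 5.96 in wild-type lateral arrays. As for Emx2, every WT_LP array lay above every other array, and the other 3 groups were low. The means were 3.66 ± 0.28 in KO_LP and 5.75 ± 0.18 in WT_LP (SD, n = 3 each), and against the low level Emx2os was lower in KO_LP by at least 1.21 log2 units, which is at least 2.31-fold lower. In ventral arrays it averaged 3.22 ± 0.23 in KO_VP and 3.52 ± 0.23 in WT_VP (SD, n = 3 each), both low. The protein-coding neighbours of Emx2 were not called between the genotypes in either lobe. The lateral difference was -0.080 for Pdzd8 (limma adjusted p = 0.696) and -0.0048 for Rab11fip2 (limma adjusted p = 0.985), and both genes were well above the low level in all 4 groups.

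The genes most like Emx2 were found by Pearson's r over the 12 arrays, among 4288 genes whose group means spanned at least 1 log2 unit. They were Crabp2, a binding protein for retinoic acid (r = 0.988), the forkhead factor Foxi1, known from proton-secreting cells (r = 0.988), the neurofilament heavy chain Nefh (r = 0.987) and the GABA receptor subunit Gabrp (r = 0.985). The 12 arrays share their lobes and groups, so these r carry no p, and what the 5 genes had in common was that WT_LP was the highest group. Crabp2 averaged 6.07 in KO_LP and 7.30 in WT_LP, and 5.77 in KO_VP and 5.73 in WT_VP. Nefh averaged 4.21 in KO_LP and 8.40 in WT_LP, at least 14.6-fold lower in KO_LP against the low level. Foxi1 averaged 3.45 in KO_LP and 6.40 in WT_LP. Each of these genes, and Gabrp at 5.75 in KO_LP and 8.35 in WT_LP, had its highest 3 arrays in wild-type lateral prostate. Of these 4 genes, Foxi1 and Gabrp had a promoter window in the RefSeq table, and neither window held TAATTA.

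**Figure D2:**
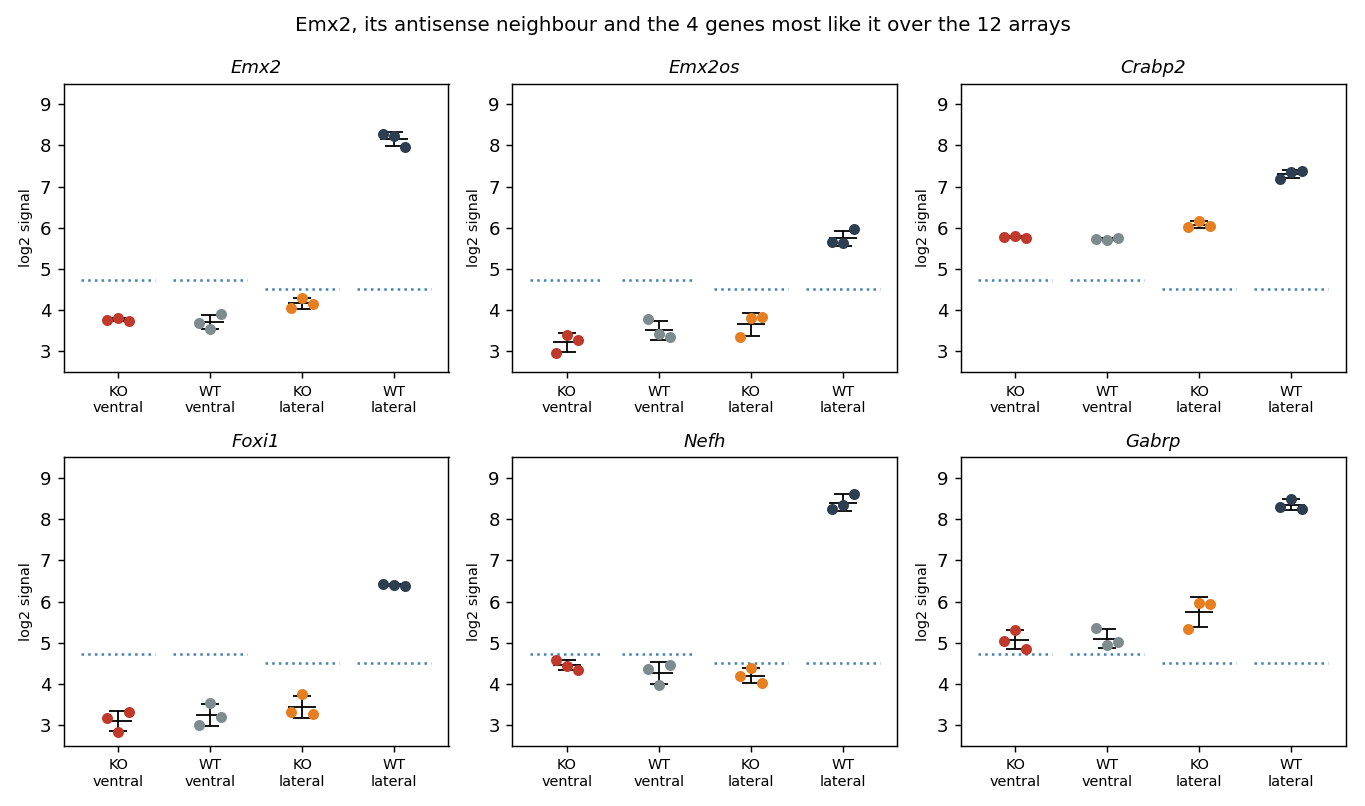
Log2 signal (vertical axis) of Emx2, of its antisense neighbour Emx2os and of the 4 genes most like Emx2, with a point per array, mean and SD bars, and a dotted line at the low-signal level. In all 6 panels the WT lateral arrays lie highest, and Crabp2 and Gabrp keep signal above the line in the other groups.

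Seminal vesicle secretory genes moved with Emx2 between the lateral groups. Of 10 such genes 7 were measured, and in KO_LP against WT_LP 4 fell and 0 rose (limma adjusted p under 0.05), with a list median of -2.53 against -0.0025 over all genes. The 4 made up 57.1% of the measured list, whereas 3.42% of all genes fell and 1.62% rose there. This list was written with earlier results of these data known, so its counts are a description alone. The summed linear signal of the 7 genes was between 1769 and 9303 in KO_LP and between 38984 and 41164 in WT_LP. It was between 375 and 415 in KO_VP and between 395 and 799 in WT_VP. For 0 of the 7 genes was the group mean low in KO_LP or WT_LP, and for 6 of 7 it was low in each ventral group. KO_LP replicate 3 and WT_VP replicate 3 stood apart from the other arrays of their groups. Svs2, a main seminal vesicle protein, read 8.71 in KO_LP replicate 3, against 11.89 and 11.99 in the other KO_LP arrays, and 7.55 in WT_VP replicate 3, against 2.80 and 2.99 in the other WT_VP arrays. Emx2 read 4.15 in KO_LP replicate 3, against 4.04 and 4.30 in the other arrays of its group, and 3.91 in WT_VP replicate 3. All of these values were low and have no order, so they cannot show whether Emx2 followed the seminal vesicle genes within a group. The part of seminal vesicle tissue in the lateral difference of Emx2 was not tested. Genes of the epididymis and vas deferens, of which 8 of 13 were measured, did not share the pattern. In KO_LP against WT_LP 1 of the 8 rose and 0 fell, with a list median of 0.13. In WT_LP against WT_VP 5 were lower and 0 higher, where 55.8% of all genes were lower and 12.3% higher. The means of 3 of the 8 were low in both lateral groups.

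**Figure D3:**
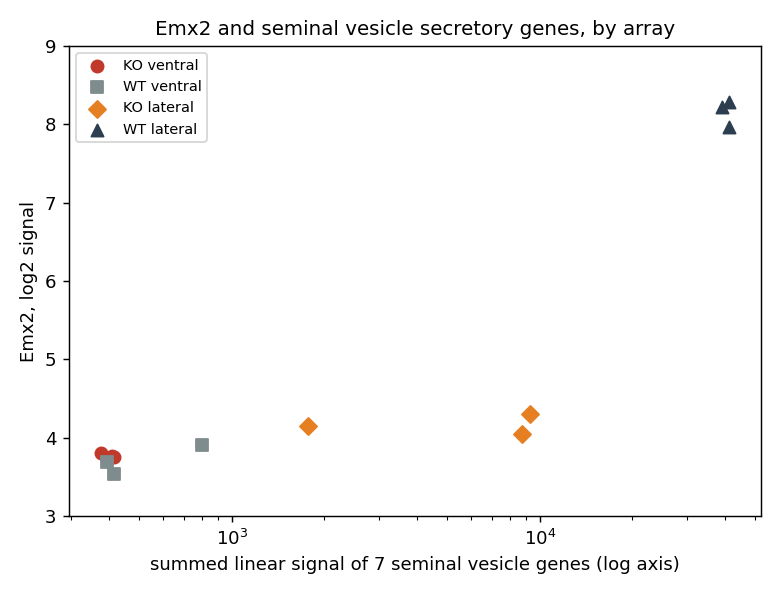
Emx2 log2 signal (vertical axis) against the summed linear signal of 7 seminal vesicle genes (horizontal log axis), with a point per array. The 3 KO lateral arrays differ in the sum, from 1769 to 9303, and their Emx2 values, between 4.04 and 4.30, are all low and have no order. The 3 WT lateral arrays lie at the upper right.

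Gata3 was the one factor with strong signal in both lobes, and it was higher in lateral than in ventral prostate. It read 10.78, 10.84 and 10.75 in wild-type lateral arrays, against 9.07, 9.05 and 9.08 in wild-type ventral arrays. The lateral arrays all lay above the ventral ones, as was the case in one direction or the other for 73.3% of all genes. The difference was 1.72 ± 0.074 (SE, limma adjusted p = 1.89e-10), or 3.30-fold. Of all genes, 68.1% passed in this comparison, 12.3% as higher and 55.8% as lower in lateral prostate, and lobe and normalization run cannot be told apart. The median of all genes was -0.34, and Gata3 lay 2.06 above it. After quantile normalization over all 12 arrays the difference of Gata3 was 2.23, and after median centring it was 2.08.

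Gata3 did not pass between the genotypes in either lobe. In the ventral lobe it read 9.14, 9.22 and 9.18 in knockout arrays, above 9.07, 9.05 and 9.08 in wild-type arrays. The groups did not overlap, as was true of 29.5% of genes, yet the difference of 0.11 ± 0.074 (SE) did not pass (limma adjusted p = 0.373; 95% interval -0.045 to 0.27). In the lateral lobe it read 10.71, 10.69 and 10.61 in the arrays labelled KO, below 10.78, 10.84 and 10.75 in wild-type arrays, and 26.9% of genes were likewise without overlap. That difference was -0.12 ± 0.074 (SE, limma adjusted p = 0.409; 95% interval -0.28 to 0.040). The lateral minus the ventral difference was -0.23 ± 0.10 (SE, limma adjusted p = 0.182).

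Of 9 measured T lymphocyte and innate lymphoid genes, whose cells also use Gata3, 7 were lower and 1 was higher in wild-type lateral than in wild-type ventral prostate (limma adjusted p under 0.05), where 55.8% of all genes were lower and 12.3% higher. The median was -0.49, near the -0.34 of all genes, so nothing about the list is read from it. The higher gene was Thy1, at 2.69, which fibroblasts and nerve cells express as well. Genes most like Gata3 over the 12 arrays were the aurora kinase Aurkc (r = 0.999), the lipid-binding protein Sec14l2 (r = 0.999), the fucosyltransferase Fut9 (r = 0.998) and the ribonuclease angiogenin (Ang, r = 0.997). All 4 were higher in both lateral groups than in both ventral groups. Sec14l2, for example, averaged 9.22 in KO_LP and 9.36 in WT_LP, and 6.88 in KO_VP and 6.77 in WT_VP.

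Pax8 lay near the low level, and its probe sets disagreed about the lobes. The brighter one read 5.38, 5.41 and 5.16 in KO_LP, 5.33, 5.27 and 5.24 in WT_LP, 4.61, 4.41 and 4.74 in KO_VP, and 4.50, 4.68 and 4.77 in WT_VP. Lateral arrays were above the low level, and ventral group means were below it. This probe set was higher in WT_LP than in WT_VP by 0.63 ± 0.11 (SE, limma adjusted p = 1.27e-04), and the mean of WT_VP was low, which makes the size inexact. It was 0.91 with quantile normalization over all arrays, 0.99 with median centring and 0.32 with averaged probe sets. The other Pax8 probe set, in a fit over all probe sets, differed between the same groups by 0.0044 ± 0.13 (SE, limma adjusted p = 0.978), and its means of 4.25 in WT_LP and 4.25 in WT_VP were both low. A higher level of Pax8 in lateral prostate thus rests on 1 of its 2 probe sets. Between the genotypes Pax8 differed by -0.062 ± 0.11 in the ventral lobe (SE, limma adjusted p = 0.765; 95% interval -0.29 to 0.17) and by 0.037 ± 0.11 in the lateral lobe (SE, limma adjusted p = 0.888; 95% interval -0.19 to 0.27).

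Lhx1 had low signal on every array. It read 4.34, 3.94 and 4.13 in KO_VP, against 4.08, 4.06 and 4.31 in WT_VP, and 4.04, 4.49 and 4.45 in KO_LP, against 4.05, 4.41 and 4.26 in WT_LP. The groups overlapped in both lobes. The genotype difference was -0.016 ± 0.14 in the ventral lobe (SE, limma adjusted p = 0.960) and 0.089 ± 0.14 in the lateral lobe (SE, limma adjusted p = 0.781), and at this signal a change of the transcript may not be visible. The dimmer of its 2 probe sets, with means of 2.65 in WT_LP and 3.53 in WT_VP, was low in both, so no difference between the lobes is read from it. The brighter one differed between the same groups by 0.088 ± 0.14 (SE, limma adjusted p = 0.595).

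By level, Emx2 was low in KO_LP, KO_VP and WT_VP and stood above them in WT_LP. Gata3 was higher in KO_LP and WT_LP than in KO_VP and WT_VP, with no call between genotypes of a lobe. Of the 4 measured factors, 0 passed limma between genotypes in the ventral lobe, where 9.08% of all genes passed, and 0 had an unadjusted p under 0.05. In the lateral lobe 0 of the 3 factors tested passed, where 5.03% of genes did, with 0 at an unadjusted p under 0.05, and Emx2 was not tested there. For the difference between the lobes in the genotype effect, 0 of these 3 passed, against 9.31% of all genes, and 1, Gata3, had an unadjusted p under 0.05.

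The wider network of Wolffian duct and ureteric bud genes was described from a list of 45 genes, of which 42 were measured. In the ventral lobe 7 rose and 1 fell (limma adjusted p under 0.05), 19.0% of the list, with a median of 0.16 against -0.020 over all genes. Of all genes, 5.88% rose and 3.2% fell there. In the lateral lobe 1 rose and 3 fell, 9.52% of the list, with a median of -0.065, and of all genes 1.62% rose and 3.42% fell. The genotype effect was lower in the lateral than in the ventral lobe for 10 of the 42, against 6.51% of all genes, and higher for 0, against 2.8%. Without KO_VP replicate 3 the lateral count was 7 and with array weights it was 9.

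In the lateral lobe 38 of the 42 network genes were not called, and the 4 that were called are given here. Ret, the receptor tyrosine kinase for GDNF, read 5.04, 5.05 and 5.24 in the arrays labelled KO, against 5.73, 5.67 and 5.74 in wild-type lateral arrays. The lateral groups did not overlap, as was true of 26.9% of all genes, and the difference of Ret was -0.60 ± 0.11 (SE, limma adjusted p = 0.00710). Etv5, an Ets factor that Ret signalling induces in the bud, read 4.63, 4.51 and 4.89 in the arrays labelled KO, against 5.76, 5.56 and 5.50 in wild-type lateral arrays (-0.93 ± 0.14, SE, limma adjusted p = 0.00121). These arrays did not overlap either, and 1 of the 3 arrays labelled KO was low. The zinc finger factor Osr1, an early gene of intermediate mesoderm, fell to 6.39 ± 0.12 in KO_LP, against 7.04 ± 0.15 in WT_LP (SD, n = 3 each; limma adjusted p = 0.00721). Npnt, a basement membrane ligand of integrin alpha 8, was the lateral rise, at 7.63 ± 0.25 in KO_LP and 6.90 ± 0.22 in WT_LP (SD, n = 3 each; limma adjusted p = 0.00505).

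In the ventral lobe Npnt was higher as well, at 7.32, 7.40 and 7.56 in knockout arrays, against 5.85, 6.05 and 5.99 in wild-type arrays (1.47 ± 0.13, SE, limma adjusted p = 2.37e-05). Its integrin partner Itga8 rose by 0.84, the activin subunit gene Inhba by 1.18, the growth factor gene Bmp4 by 0.49 and Spry1, an inhibitor of receptor tyrosine kinase signalling, by 0.46. Etv5 (0.55) and the guidance cue Slit2 (0.49) also rose, although all 3 WT_VP arrays of Slit2 were low, so that it was at least 1.18-fold higher in KO_VP, and the fall was in Wnt4 (-0.64), a signal best known from kidney and female duct development. Limma's adjusted p for these 7 genes lay between 0.00169 and 0.0297. With averaged probe sets the rise was smaller for Npnt (0.78) and Inhba (0.57), and the fall of Wnt4 was -0.54. Itga8 then rose by 0.93, and Bmp4 (0.49) and Spry1 (0.46) stayed the same. All of these kept their calls. The call of Bmp4 was lost without WT_VP replicate 1 (limma adjusted p = 0.0505). Etv5 lost its ventral call without WT_VP replicate 1 (limma adjusted p = 0.0711), WT_VP replicate 2 (0.0909), KO_VP replicate 1 (0.0917) or KO_VP replicate 2 (0.0626), and also with the 6 ventral arrays alone (0.0655) or with averaged probe sets (0.119), and Slit2 lost its own without any one of 5 of the 6 ventral arrays (limma adjusted p from 0.0512 to 0.113), with the 6 ventral arrays alone (0.0525) or with averaged probe sets (0.0830). Smooth muscle and fibroblast genes moved with the ventral rises, and their part was not tested. In the ventral lobe, where 5.88% of all genes rose and 3.2% fell, 6 of 8 smooth muscle and 5 of 7 fibroblast genes rose and 0 fell. In the lateral lobe, where 1.62% of all genes rose and 3.42% fell, 2 of 8 smooth muscle and 4 of 7 fibroblast genes fell and 0 rose. Their summed linear signals were between 20614 and 24265 in KO_VP and between 15057 and 17464 in WT_VP for smooth muscle, and between 8852 and 9712 in KO_VP and between 6989 and 8274 in WT_VP for fibroblasts. In the lateral lobe they were between 22929 and 27114 in KO_LP and between 30898 and 32628 in WT_LP for smooth muscle, and between 4664 and 5741 in KO_LP and between 6416 and 6872 in WT_LP for fibroblasts.

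**Figure D4:**
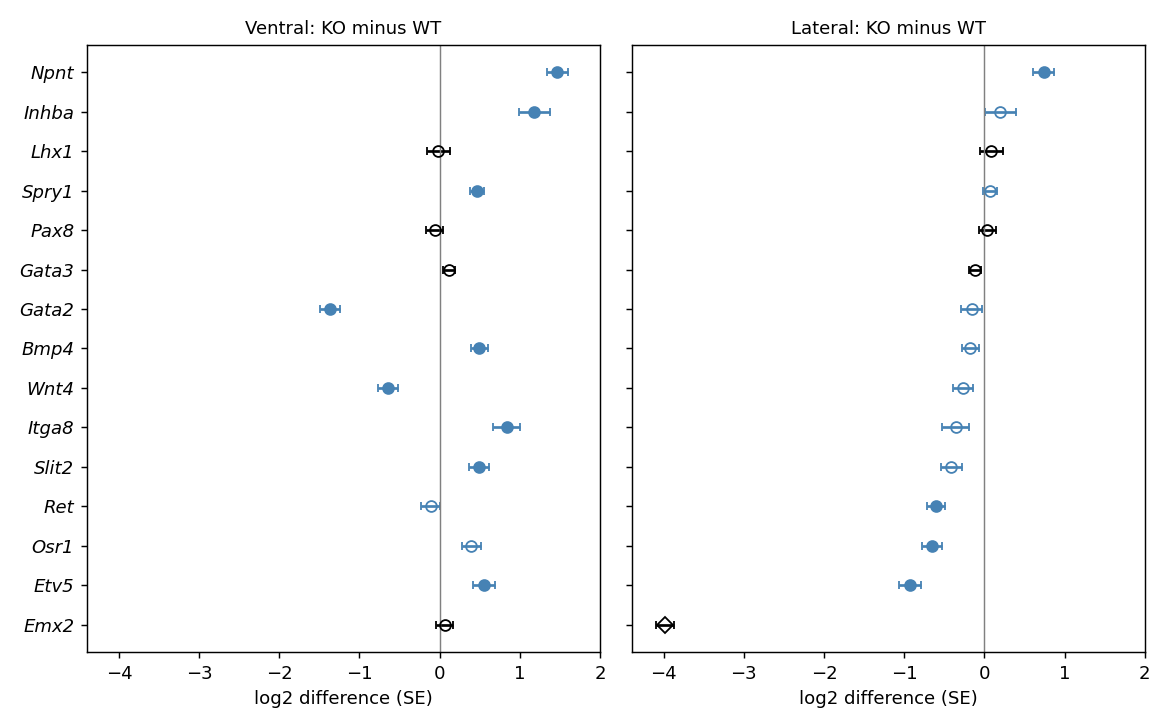
Log2 difference between knockout and wild type with its SE (horizontal axis) in the ventral (left) and lateral (right) lobe, for the 4 measured factors (black) and for the network and family genes that passed in either lobe (blue). Filled points passed limma's adjusted p of 0.05, open circles did not, and the open diamond is the lateral value of Emx2, which was not tested and at -3.99 lies far from the other genes, which span -1.37 to 1.47.

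Of the 20 other Emx, Pax, Lhx and Gata genes, limma called 1 in ventral and 0 in lateral prostate, with 3 in each lobe at an unadjusted p under 0.05. The called genes are 5% and 0% of the family, against 9.08% and 5.03% of all genes. The ventral gene was Gata2, the Gata family member known as a partner of the androgen receptor in prostate cells. It read 7.78, 7.54 and 7.68 in ventral knockout arrays, against 8.79, 8.92 and 9.39 in wild-type ventral arrays. The ventral groups did not overlap, as was true of 29.5% of all genes, and the difference of Gata2 was -1.37 ± 0.13 (SE, limma adjusted p = 2.75e-05). In the lateral lobe Gata2 averaged 11.33 ± 0.11 in KO_LP and 11.49 ± 0.026 in WT_LP (SD, n = 3 each). Emx1, the closest relative of Emx2, averaged 5.80 in KO_LP and 5.50 in WT_LP and did not pass. Of 15 factors and signals of urogenital sinus and prostate epithelium, 13 were measured. Limma called 0 of them in the ventral lobe, with 3 at an unadjusted p under 0.05. In the lateral lobe it called 1 (7.69%), with 5 at an unadjusted p under 0.05. The shares called are set against the same 9.08% and 5.03%. The lateral call was Hoxd13, picked out after its values were seen, at 7.48 ± 0.026 in KO_LP and 7.91 ± 0.10 in WT_LP (SD, n = 3 each).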

How the data were processed

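The deposited values are log2 signals, for which the submitters' processing notes name RMA and Affymetrix Expression Console, with no version. Of 45101 probe sets, 34958 had 1 gene symbol in the platform annotation, 932 several and 9211 none. A RefSeq table (GRCm38.p6) supplied current symbols by Entrez identifier for 34754 probe sets, and the brightest probe set per gene gave 18194 genes. Coordinates of array probes are not given.

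Group means over all 12 arrays were fitted with limma 3.58.1 in R 4.3.3 (lmFit, eBayes), with 8 residual and 5.68 prior degrees of freedom and Benjamini-Hochberg adjustment over all genes at 0.05. The number of arrays limits the precision. Members, lists and the naming rule (the members and their probe sets, at most 8 called genes per network or family list and contrast, the 4 genes most like a member whose group means span at least 1 log2 unit, its neighbours on the chromosome, and Med1) were chosen with earlier results of these data known. Replicate numbers are shared between groups, and deviations of same-numbered arrays correlated at -0.061 to 0.12, so they were not treated as pairs. On simulated data for the lateral comparison (18194 genes), limma recovered 34 of 67 changes of 0.5 on the log2 scale. It recovered 58 of 67 changes of 1 and 66 of 66 changes of 2, and 10 false calls were made. All groups were drawn there around the WT_VP means with independent normal noise, with no lobe difference and no signal floor. These rates may thus not apply to genes near the low level. Alternatives were other arrays in the fit, a replicate block, other normalization, filter, probe set handling and variance models, and each array left out.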

Additional observations from a re-analysis of the deposited data

Results flagged for a closer look

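A genotype effect that differed between the lobes by limma's interaction contrast (lateral minus ventral, log2, adjusted p under 0.05) was found for 10 of the 42 network genes and 2 of the 20 family genes, against 9.31% of all genes. The network genes were Etv5 (-1.48), Osr1 (-1.05), Itga8 (-1.19), Slit2 (-0.90), Bmp4 (-0.67), Hoxd11 (-0.89), Npnt (-0.73), Hoxd10 (-0.74), Inhba (-0.98) and Hoxa11 (-0.54), and the family genes were Gata2 (1.21) and Pax9 (0.72). Etv5 had the largest of these values and opposite directions in the lobes, with calls in both. As given above, its ventral call was lost without some single arrays, with the 6 ventral arrays alone and with averaged probe sets. In KO_LP 1 of its 3 arrays was low. Limma's adjusted p ran from 4.37e-04 for Etv5 to 0.0386 for Hoxa11. Emx2os, picked out after its values were seen, had a value of -1.79, to which the low signal in 3 of its groups sets a limit. Groups of 3 arrays are too small for the test of single arrays that stand apart.

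The calls of Hoxd11, Npnt, Hoxd10, Inhba, Hoxa11 and Pax9 were lost when single arrays were left out, for 3, 7, 7, 8, 9 and 8 of the 12 arrays in that order. With each array left out, limma's adjusted p reached 0.0625 for Hoxd11, 0.0744 for Npnt, 0.0830 for Hoxd10, 0.0834 for Inhba, 0.0922 for Hoxa11 and 0.0799 for Pax9. For this difference between the lobes, the calls of Etv5, Osr1, Itga8, Slit2, Bmp4 and Gata2 held without any single array. The WT_VP arrays of Slit2 were all low, so its value is inexact, and Slit2 lost its call with averaged probe sets (limma adjusted p = 0.0592).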

How the results depend on the processing

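Under the other settings run for it, the lateral difference of Emx2 stayed between -4.15 (quantile normalization over all arrays) and -3.92 (lowest and highest without single arrays: -4.08 and -3.92). Quantile normalization moved its lateral minus ventral difference to -4.25 and its lobe difference to 4.77, and median centring moved the lobe difference to 4.80. Gata3 kept its direction and its side of the threshold under all settings run. Pax8 and Lhx1, without a genotype call in any setting, changed sign near 0. Averaging probe sets gave Pax8 0.00045 in the ventral lobe, -0.11 in the lateral lobe and -0.11 for the difference between lobes, and array weights gave -0.0058 in the lateral lobe. For Lhx1 the ventral value was 0.019 with quantile normalization, 0.047 with array weights and 0.065 without both arrays that stood apart in seminal vesicle genes (a setting added after seeing the data), which also gave -0.039 for the difference between lobes. The lobe difference of Lhx1 passed at 0.45 with median centring and at -0.40, the other direction, with averaged probe sets, all at low signal. Without single arrays, the ventral value ranged from -0.025 to 0.16 for Emx2, from -0.14 to 0.029 for Pax8 and from -0.12 to 0.081 for Lhx1, and the lateral value from -0.011 to 0.11 for Pax8 and from -0.0056 to 0.23 for Lhx1.

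Counts of called genes depended on single arrays, ranging from 941 to 1760 (ventral), 499 to 1168 (lateral) and 1103 to 1732 (difference). Leaving out both arrays that stood apart gave 860, 583 and 973, and the 6 ventral arrays alone gave 965. Called network genes ranged from 4 to 7 (lateral) and 5 to 11 (difference) without single arrays. The count was 9 in the lateral lobe with array weights, 5 for the difference without both arrays, and 17 for the lobes once the dimmest 40% of genes, which include Emx2, Pax8 and Lhx1, were left out. Before that filter, which took network genes out of the test as well, the lobe count was 26 of 42. That is 61.9% of the list, against 68.1% of all genes. The network calls for the difference, 10 with all arrays, were 6 without WT_VP replicate 1, WT_LP replicate 2 or WT_LP replicate 3 and 5 without KO_LP replicate 3. With the replicate block, genes called were 1492 (ventral), 848 (lateral) and 1558 (difference), and Gata3 differed by 0.11 and -0.12 there, so no call of a measured factor changed. The numbers do not pair the arrays, and the block took the calls of Hoxa11 and Pax9 for the difference between lobes (limma adjusted p = 0.0610 and 0.0551). Signal near the low level limits Pax8 and Lhx1.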
